A study of Sus scrofa with 6 samples.

Results

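HBB and ENSSSCG00000014726 are 2 of the 1780 gene rows of a read count table made from whole pig embryos. HBB was found by its Ensembl pig identifier, ENSSSCG00000014725. ENSSSCG00000014726 was chosen by its total count over the 6 libraries, the largest of the table, so its abundance is a description and was not tested. Both genes passed the filter on low counts, as did 807 rows in all.

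The embryos were of Landrace x Yorkshire x Duroc stock and were collected at embryonic day 21. Parthenotes (n = 3) developed from oocytes that electric pulses had activated, with no sperm, and were carried in 2 surrogate gilts, so they had no paternal genome. Controls (n = 3) were labelled untreated, and how they were conceived, and in which dams, is not described here. Each library came from 1 whole embryo's total RNA as far as the labels say, and the p-values below measure the spread between these embryos, which may share litters. The lack of a paternal genome cannot be told apart from differences of conception, dam, handling or stage between the groups.

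Haemoglobin, the oxygen carrier of red cells, is built from alpha-type and beta-type globin chains. In mammals the first red cells arise in the yolk sac and carry embryonic chains. Red cells made later, first in the fetal liver, carry the fetal or adult chains, and HBB encodes the beta chain of adult haemoglobin. The genes of the beta-type chains lie side by side in one cluster, and their messages are similar enough that reads can be assigned to the wrong member.

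ENSSSCG00000014726 could not be given a name. The table of Ensembl identifiers and symbols used here pairs ENSSSCG00000014725 with HBB and has no entry for ENSSSCG00000014726. RefSeq's gene table for Sscrofa11.1 places HBB at chr9:4800683-4801941, a span of 1259 bp that contains the exons and introns of the gene. The same table lists the embryonic beta-type gene HBE1 at chr9:4818206-4820243, 16264 bp away, with 2 other RefSeq genes between them. It pairs neither gene with an Ensembl identifier, and 0 rows of the count table carry the symbol HBE1. Whether ENSSSCG00000014726 is an embryonic globin is therefore not shown by these sources, and the gene is called by its identifier and given no role. Its length is not given either, so the levels of the 2 genes were not compared per length.

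Each library held 1193714 to 1484193 reads counted in these rows, and a share below is a share of those reads. Of the 1780 rows 685 could be placed through their symbol, 684 of them on chromosome 9, and the others, ENSSSCG00000014726 among them, have no position in the tables used. Shares, ranks and scaled counts below therefore describe these rows and not all genes of the embryos. The libraries numbered 1, parthenote 1 and control 1, stood apart from the other 4. ENSSSCG00000050793, a gene without a symbol that was chosen after its values were seen, had 23 reads in parthenote 1, 9245 in parthenote 2 and 10139 in parthenote 3. It had 62, 11180 and 13334 reads in control 1, 2 and 3. In 172 of the 807 tested genes (21.3%) both libraries numbered 1 lay on the same side of all the other 4, and ENSSSCG00000014726 was one of these while HBB was not. In 8 of the 172 genes the libraries numbered 1 differed from the other 4 by at least 2-fold on average, and in 2 by at least 4-fold. The labels name no batch, and the part of this split in the results was not tested. The log2 fold changes of both genes and the count of called genes are given with and without the libraries concerned. The ratio of the 2 genes is given with single libraries left out only.

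ENSSSCG00000014726 was the most abundant row in all 6 libraries. It had 261272, 209890 and 267732 reads in parthenote 1, 2 and 3, and 290889, 98931 and 107822 reads in control 1, 2 and 3. Over all libraries it held 1236536 reads, 15.3% of the reads counted in these rows. The row just below it was COL1A2, a collagen I chain gene of connective tissue, with 366738 reads. The third was APOA1, the main protein of high-density lipoprotein made by liver and yolk sac, with 250809. ENSSSCG00000014726 exceeded the next gene by 4.35-fold, 3.12-fold and 3.76-fold in parthenote 1, 2 and 3, and by 5.28-fold, 1.70-fold and 1.75-fold in control 1, 2 and 3.

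As a share of reads, ENSSSCG00000014726 took 19.1%, 15.4% and 18.0% in parthenote 1, 2 and 3, and 20.8%, 8.29% and 8.47% in control 1, 2 and 3. The parthenotes were alike and high, while the controls split, with control 1 above every parthenote and control 2 and 3 below every one. The groups therefore overlapped, through control 1 alone. The widest 95% Wilson interval among these shares, that of control 1, was 20.7% to 20.9%. Such intervals cover counting error only and take every read as independent. Reads that carry no molecular identifier may be copies of 1 molecule, so even that error may be understated. The intervals are far narrower than the spread between embryos.

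The reads outside ENSSSCG00000014726 numbered 1094783 to 1216461 per library, a smaller range than that of the full totals.

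HBB was of moderate level among these rows, 250th of the 1780 by total count. It had 219, 811 and 151 reads in parthenote 1, 2 and 3, and 1108, 1562 and 2735 reads in control 1, 2 and 3. All 3 parthenotes lay below all 3 controls, with parthenote 2 nearest to the controls and control 1 nearest to the parthenotes. Within its own library HBB ranked 521st, 318th and 573rd in parthenote 1, 2 and 3, and 231st, 156th and 86th in control 1, 2 and 3.

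The HBB share of reads was 0.0160%, 0.0594% and 0.0102% in parthenote 1, 2 and 3, and 0.0793%, 0.131% and 0.215% in control 1, 2 and 3. The 95% Wilson intervals of the nearest libraries of the groups, parthenote 2 (0.0555% to 0.0637%) and control 1 (0.0747% to 0.0841%), did not meet. These intervals take every read as independent and set 1 embryo against 1 embryo, so they say nothing about the spread between embryos. With the reads of ENSSSCG00000014726 taken out of the totals, the shares reached 0.0702% in parthenotes and 0.235% in controls. All 3 controls lay above all 3 parthenotes on that scale too.

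**Figure D1:**
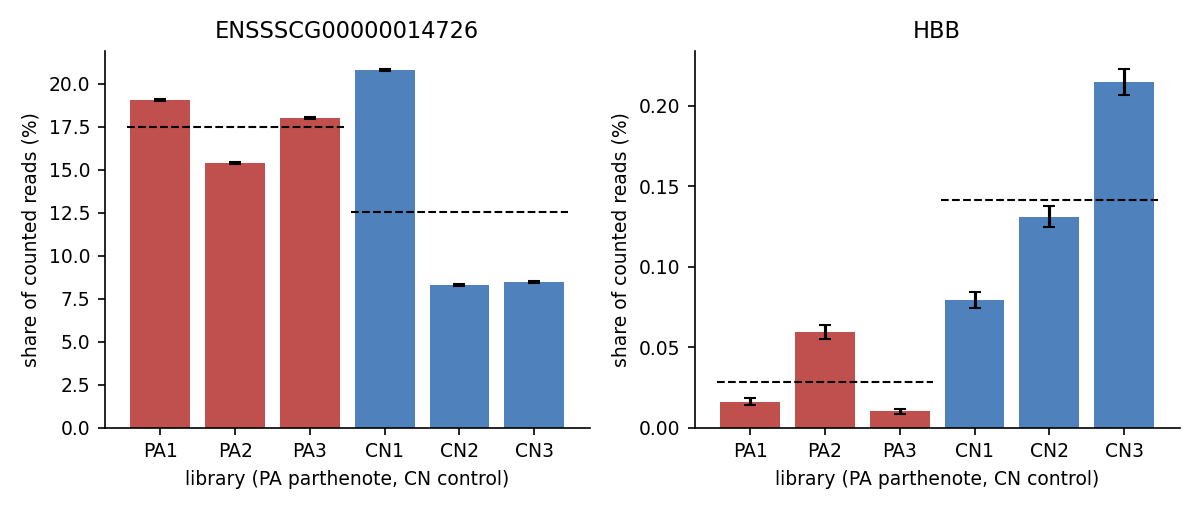
Share of counted reads (%, vertical axes from 0) taken by ENSSSCG00000014726 (left) and HBB (right) in each library, parthenotes (PA, red) left of controls (CN, blue). Bars are single libraries with 95% Wilson intervals for counting error, and dashed lines are group means. ENSSSCG00000014726 is high in every parthenote and in control 1, and HBB is lower in every parthenote than in any control.

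In counts per 1000000 reads scaled by TMM (CPM), HBB averaged 281 ± 256 in parthenotes and 1388 ± 612 in controls (SD, n = 3 each). The fitted log2 fold change was -2.30 ± 0.78 (SE), or 4.93-fold lower in parthenotes, with a 95% interval of -4.35 to -0.25. This did not pass edgeR's quasi-likelihood test after Benjamini-Hochberg adjustment over the 807 genes (adjusted p = 0.189, unadjusted p = 0.0347). In this comparison 5.20% of the tested genes were called, 3.59% as lower and 1.61% as higher in parthenotes, and 21.7% had an unadjusted p under 0.05. The groups did not overlap in 28.0% of the tested genes, of which HBB was one, and in 14.3% with the parthenotes lower. A separation of that kind was thus common among genes of this table. In these bulk libraries fewer red cells that hold HBB message and less HBB message per cell cannot be told apart.

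The size of the HBB difference was among the largest of the table while its test fell short. Of the 807 tested genes 6 had a lower log2 fold change than HBB, and all 6 of those were called. Among the 42 called genes 36 had a smaller change than HBB in either direction. The spread between embryos of a group was correspondingly wide. The pooled SD of HBB within groups was 1.01 on the log2 CPM scale, against a median of 0.18 over all tested genes. Only 11 tested genes had a larger one. Of the 244 genes at least as abundant as HBB, only ENSSSCG00000050793, the gene that was low in the libraries numbered 1, varied more.

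Among parthenotes HBB differed 5.66-fold in CPM between the highest library, parthenote 2, and the lowest, parthenote 3. Among controls it differed 2.37-fold between control 3 and control 1. In edgeR's test the call turned on parthenote 2. Without parthenote 2 the log2 fold change of HBB was -3.37 ± 0.42, or 10.3-fold lower in parthenotes, and passed edgeR's test (adjusted p = 0.00550, with 3.18% of genes called in that fit). That fit rests on 2 parthenotes and leaves out the one nearest to the controls, so a larger difference was built in. Without any other single library HBB missed the threshold, with adjusted p-values of up to 0.364 in edgeR's test. HBB also passed with all 6 libraries in DESeq2 (adjusted p = 0.0426, 9.14% of genes called) and in limma-voom (adjusted p = 0.0293, 4.83% called). Over the 19 alternatives the adjusted p ran from 0.00550 to 1.00, the upper end from a test against a 1.5-fold change.

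ENSSSCG00000014726 averaged 176245 ± 25722 CPM in parthenotes and 129419 ± 86451 CPM in controls (SD, n = 3 each). The log2 fold change was 0.45 ± 0.39 (SE) and did not pass (adjusted p = 0.548 in edgeR's quasi-likelihood test). Its 95% interval of -0.45 to 1.34 allows anything between 0.730-fold and 2.54-fold of the control level. The pooled SD within groups was 0.64 on the log2 CPM scale, which 41 of the 807 tested genes exceeded. Of the 244 genes at least as abundant as HBB, only ENSSSCG00000050793, HBB itself and FMO1, a flavin monooxygenase gene, varied more. In controls the CPM differed 2.95-fold between the highest and lowest library, and in parthenotes 1.34-fold.

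Control 1 decided this result. Without control 1, ENSSSCG00000014726 had a log2 fold change of 1.15 ± 0.15, or 2.22-fold higher in parthenotes, and passed edgeR's test (adjusted p = 0.00529, with 5.15% of genes called in that fit). That fit rests on 2 controls and leaves out the control with the highest level, so a larger difference was built in. Leaving out control 2 or control 3 instead brought the log2 fold change to 0.18 and 0.20. Over the 19 alternatives the adjusted p ran from 0.00529 to 1.00.

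Control 1 is also one of the libraries numbered 1 that stood apart. With both of them left out, an alternative added after seeing the data, parthenote 2 and 3 were compared with control 2 and 3. ENSSSCG00000014726 was then 2.06-fold higher in parthenotes, with 1.04 ± 0.15 on the log2 scale (edgeR adjusted p = 0.0198, 9.42% of genes called). HBB had a log2 fold change of -2.30 ± 0.91 in the same fit and did not pass (adjusted p = 0.213). Within number 1 alone, with 1 library per group and no test, ENSSSCG00000014726 had 199790 CPM in the parthenote and 229221 CPM in the control. HBB had 167 CPM in parthenote 1 and 873 CPM in control 1. The direction of HBB was the same in each set, as it had to be, since every parthenote lay below every control. That of ENSSSCG00000014726 differed between the sets.

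**Figure D2:**
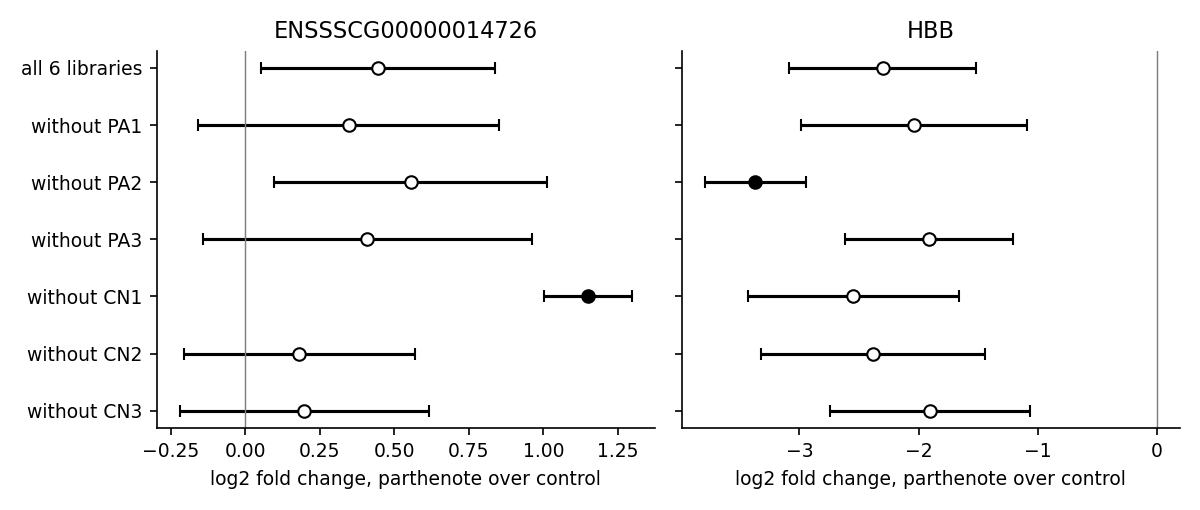
Log2 fold change of parthenote over control (horizontal axes, bars ± SE of the edgeR fit) with all 6 libraries and with each left out in turn, for ENSSSCG00000014726 (left) and HBB (right). Filled points passed an adjusted p of 0.05: ENSSSCG00000014726 passed only without control 1 (CN1) and HBB only without parthenote 2 (PA2).

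**Figure D3:**
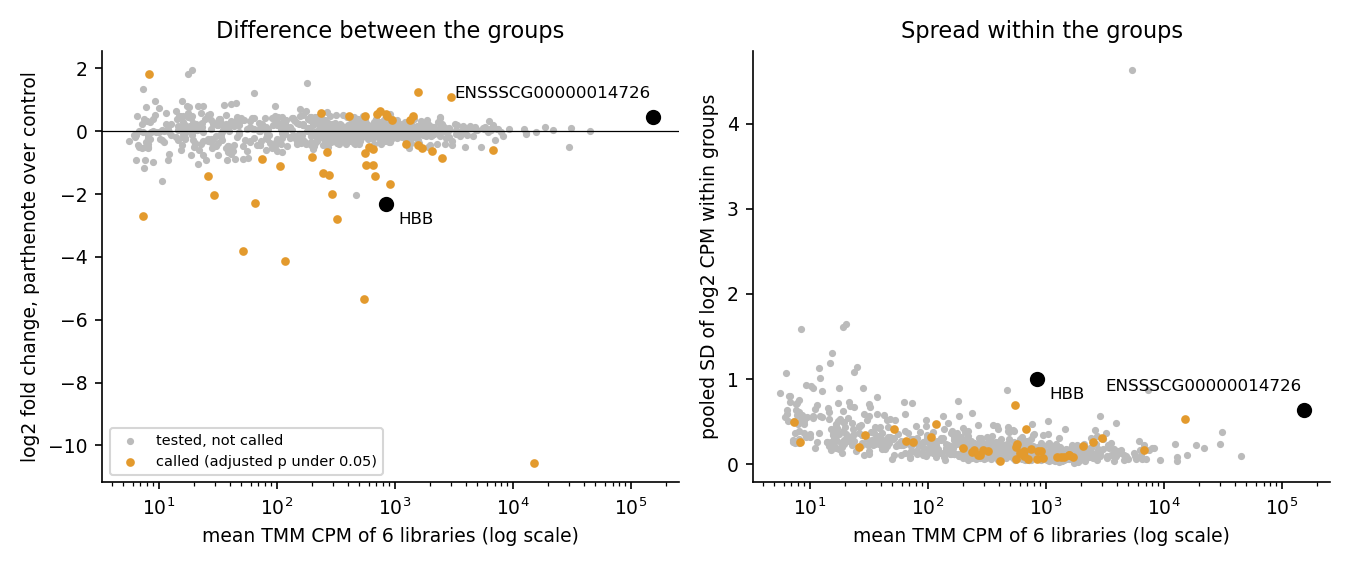
The 807 tested genes by mean CPM (log scale), with the log2 fold change of parthenote over control (left) and the pooled SD of log2 CPM within groups (right). Orange points were called and black points are HBB and ENSSSCG00000014726. HBB lies far below 0 but its SD of 1.01 is well above the median of 0.18, and ENSSSCG00000014726 is the most abundant gene with an SD of 0.64.

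The ratio of the 2 rows is taken within a library, so library size and scaling cancel, and gene length cancels when libraries are compared. Per 1000 reads of ENSSSCG00000014726 there were 0.838, 3.86 and 0.564 HBB reads in parthenote 1, 2 and 3. There were 3.81, 15.8 and 25.4 in control 1, 2 and 3. Put the other way, 1 HBB read came with 1193, 259 and 1773 reads of ENSSSCG00000014726 in the parthenotes, and with 263, 63.3 and 39.4 in the controls.

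Parthenote 1 and 3 were the lowest and control 2 and 3 the highest, and the groups met in the middle. Parthenote 2 had 3.86 HBB reads per 1000 (95% interval 3.61 to 4.14) and control 1 had 3.81 (3.59 to 4.04). These intervals for counting error overlapped, but they set 1 embryo against 1 embryo and say nothing about the spread between embryos. The order of HBB and the order of ENSSSCG00000014726 each brought parthenote 2 and control 1 together. Control 1 had the lowest HBB and the highest ENSSSCG00000014726 of the controls, and parthenote 2 had the highest HBB and the lowest ENSSSCG00000014726 of the parthenotes.

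The log2 ratio averaged -9.68 ± 1.47 in parthenotes and -6.44 ± 1.42 in controls (SD, n = 3 each). The difference was -3.24, or 9.42-fold lower in parthenotes. An exact two-sided permutation test over the 6 libraries gave p = 0.2, where 0.1 is the smallest p that 3 against 3 can give. With single libraries left out the difference ran from -4.07 to -2.67. Its sign did not turn, which was nearly fixed because the groups overlapped only through parthenote 2 and control 1. Within a replicate number the ratio was 4.54-fold, 4.09-fold and 45.0-fold lower in the parthenote for numbers 1, 2 and 3. No label makes same-numbered embryos pairs, and number 3 sets the lowest parthenote against the highest control.

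**Figure D4:**
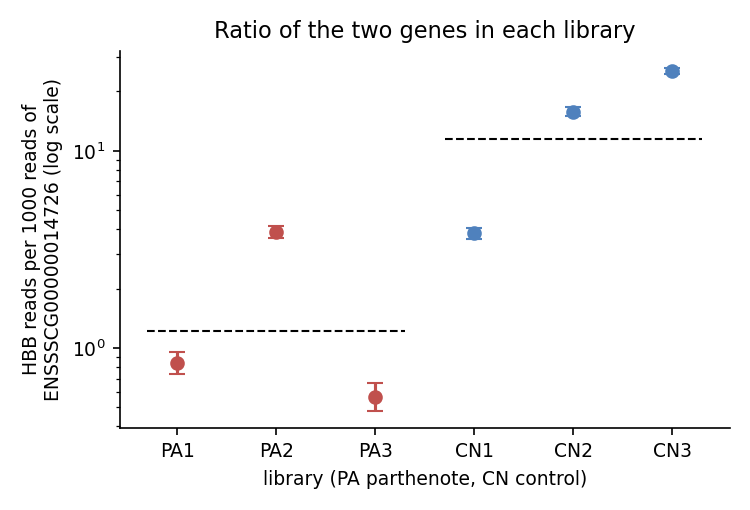
HBB reads per 1000 reads of ENSSSCG00000014726 (log scale) in each library, parthenotes (PA, red) left of controls (CN, blue), with 95% intervals for counting error and dashed lines at the mean of the log2 ratios. Parthenote 2 at 3.86 and control 1 at 3.81 coincide, and the other parthenotes lie below and the other controls above them.

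Haem is the iron-holding group that each globin chain carries, and genes of its handling and of red cell formation were looked up in the same libraries. None of the 34 genes on a list of red cell markers, which holds the alpha-type globins, spectrins and glycophorins, was among the rows analysed here. HBB was the only one of 8 names for beta-type globins among the rows. The rows do not hold all genes of the pig, so a gene missing from them may still be expressed. Whether the number of red cells differed between the groups was therefore not tested.

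FLVCR1, which exports haem from cells, had 550 ± 81.5 CPM in parthenotes and 517 ± 54.3 CPM in controls (SD, n = 3 each). Its log2 fold change of 0.09 ± 0.14 did not pass edgeR's test (adjusted p = 0.759).

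Of 26 regulators of blood formation and globin switching, 5 were tested and 0 were called, beside 5.20% called over all tested genes, so a count of 0 in so small a list says nothing particular about it. Their median log2 fold change was -0.02 against 0.02 over all tested genes. IKZF1, which encodes the lymphoid and erythroid transcription factor Ikaros, had 189, 161 and 143 CPM in parthenote 1, 2 and 3. It had 188, 239 and 290 CPM in control 1, 2 and 3. As with HBB, control 3 was the highest library and parthenote 3 the lowest, but control 1 lay among the parthenotes. In edgeR's test IKZF1 had a log2 fold change of -0.54 ± 0.18 and an adjusted p of 0.138. The chromatin genes EED, EZH2 and KMT2A, and CBL, a ubiquitin ligase of cytokine receptors, had log2 fold changes from -0.10 for EED to 0.39 for CBL.

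Of 17 iron-handling genes 4 were tested. STEAP2, a metalloreductase, fell to 370 ± 62.0 CPM in parthenotes, against 772 ± 111 CPM in controls (SD, n = 3 each; adjusted p = 0.00499 in edgeR's test). HPX, which encodes the haem-binding plasma protein hemopexin made by liver, had a log2 fold change of 0.05 ± 0.36. It was highest in parthenote 1, at 4771 CPM, and lowest in parthenote 3, at 1597 CPM, with controls between 2666 and 2950 CPM.

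Markers of neighbouring cell types were read for the cells in which red cells arise or circulate. Of the 5 tested endothelial genes 0 were called, against 5.20% of all tested genes. Their summed level, which was mostly that of ETS1 and JAM3, was 6608 to 6752 CPM in parthenotes and 6561 to 6991 CPM in controls. The members differed among themselves, with log2 fold changes of 0.12 ± 0.08 for JAM3, 0.14 ± 0.12 for ROBO4 and -0.42 ± 0.11 for ESAM (edgeR adjusted p = 0.0677 for ESAM). No megakaryocyte marker of 11 was among the rows. Of 3 leukocyte genes, CD3D had 0 reads in all libraries, CD3E had at most 3 and IL10RA had a log2 fold change of 0.32 ± 0.15. Of 3 genes of liver and yolk sac, APOC3, an apolipoprotein gene, rose by 1.08 ± 0.20 on the log2 scale (edgeR adjusted p = 0.0178). It was the only 1 of the 3 called, beside 5.20% of all tested genes. APOA1 and APOA4 had 0.11 ± 0.24 and 0.48 ± 0.80, and APOA4 had only 5 to 59 reads per library. The summed level of the 3 was 26128 to 51368 CPM in parthenotes and 29039 to 33808 CPM in controls. This sum was mostly APOA1, which had 45978 CPM in parthenote 1, the library with the highest sum. The part of these cell types in the values of HBB and ENSSSCG00000014726 was not tested.

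Within 1 Mb of HBB 2 other genes with a symbol and a RefSeq position were tested. TRIM68 and TRIM21, ubiquitin ligase genes, lay 700990 and 980192 bp from HBB. They had log2 fold changes of 0.00 ± 0.17 and -0.01 ± 0.14. Of the 2, 0 were called, beside 5.20% of all tested genes, which says nothing particular about so small a set. Rows without a symbol could not be placed, so any of them nearer to HBB are not covered.

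The genes with a symbol whose log2 CPM followed each gene most closely over the 6 libraries are given as a description. Close matches over 6 points were not rare, since 9 tested genes exceeded an r of 0.9 with HBB and 16 with ENSSSCG00000014726. For HBB they were PLET1 (Pearson r = 0.96), FAM20B (0.95), ESAM (0.94), GLB1L2 (0.92) and STK33 (0.92). PLET1, a placenta-expressed gene, had at most 3.54 CPM in a parthenote and 9.46 to 15.7 CPM in controls. ESAM, an endothelial adhesion gene, had 304 to 352 CPM in parthenotes and 422 to 461 CPM in controls. In both genes parthenote 2 was the highest parthenote and control 1 the lowest control, as in HBB. Of these 5 only PLET1 was called. Its level in parthenotes was near the floor, and it passed the filter on low counts through the controls alone, so its call was not read as a result. The deviations from the group means of all 5 correlated with those of HBB at 0.79 to 0.91. The 5 were picked by their correlation over the same libraries, so this follows in part from the choice.

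For ENSSSCG00000014726 the closest were AASDHPPT (r = 0.99), VPS50 (0.98), BZW2 (0.98), RDX (0.97) and ARMC10 (0.96). AASDHPPT, a phosphopantetheinyl transferase gene, had 2065, 1962 and 2056 CPM in parthenote 1, 2 and 3, and 2060, 1718 and 1737 CPM in control 1, 2 and 3. Control 1 again lay with the parthenotes. The changes were small beside those of ENSSSCG00000014726, with log2 fold changes of 0.03 to 0.17 for the 5 genes, and none was called. Taken as deviations from the group means, their values correlated with those of ENSSSCG00000014726 at 0.94 to 1.00, and the split of control 1 from control 2 and 3 is shared by all of them. Both follow in part from the choice of these 5 genes by their correlation.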

How the data were processed

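The authors' deposited table gives whole-number read counts per gene for 6 libraries, without normalization, and the deposited file of each sample gives a normalized signal per gene. The submitters' processing notes name HISAT2 2.1.0, SAMtools 1.9 and the build Sscrofa11.1. The TruSeq v2 kit named in the labels' protocols does not mark strand. The counting tool, the annotation and how reads matching several globin genes were counted are not given in the sources used. Divided by a factor per library (0.916 to 1.05), 100% of the signal values came within 0.01 of a whole read. In each library the largest difference of these recovered reads from the table was that of ENSSSCG00000014726, by 25 to 103 reads. Symbols were matched by Ensembl identifier (779 of 1780 rows), and 684 of the 685 symbols with a RefSeq position lie on chromosome 9.

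Counts were filtered with filterByExpr (minimum count 10, minimum total 15) and tested with edgeR 4.0.16 in R 4.3.3, with TMM scaling, a robust quasi-likelihood fit and Benjamini-Hochberg adjustment over 807 genes at 0.05. DESeq2 1.42.0, limma 3.58.1 (voom) and other settings were alternatives. Log2 CPM values used a prior of 2 reads. No libraries of a group agreed within sampling noise (chi-square per degree of freedom 6.98 to 143). For control 1 against control 2 and 3 it was 141 and 143, and 42.4 and 43.8 without ENSSSCG00000014726.

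Deviations from the group means over the 807 genes correlated at 0.365, 0.272 and 0.147 between samples numbered 1, 2 and 3 in both groups. Between differently numbered samples the correlations ran from -0.298 to 0.145. The highest, of parthenote 2 with control 3, was close to that of number 3. All same-numbered values were above 0.1, so the blocked alternative treats same-numbered samples as pairs. This rests on the data, since no label ties a number to a litter or day. The 2 genes and the gene lists were chosen with earlier results of these data known. The genes named are those 2, beta-type globins, members of the gene lists, neighbours within 1 Mb and the 5 genes with a symbol that correlate best with each. Some genes of the lists are not reported here. No sequences were used here.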

Additional observations from a re-analysis of the deposited data

How the results depend on the processing

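No alternative turned the sign of either log2 fold change or of the ratio. For HBB leaving out libraries could not turn it, since every parthenote lay below every control. For the ratio only parthenote 2 and control 1 overlapped, so leaving out 1 library could hardly turn it. The libraries numbered 1 alone, which were not among the alternatives, went the other way for ENSSSCG00000014726 (199790 CPM in parthenote 1, 229221 CPM in control 1). For HBB the log2 fold change was -2.31 in DESeq2 and -2.61 in limma-voom, which passed, and -3.37 to -1.90 with single libraries left out. For ENSSSCG00000014726 it was 0.18 to 1.15 with single libraries left out and 1.04 without both libraries numbered 1. The cause of these shifts was not tested. Blocking on the replicate number gave HBB -2.52 (adjusted p = 0.259) and ENSSSCG00000014726 0.63 (adjusted p = 0.259) in edgeR's test, and the block changed the call of neither. The scalings, filters and recovered reads changed neither call.

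The count of called genes, 42, became 68 in DESeq2, 76 without both libraries numbered 1, 17 at an adjusted p of 0.01 and 13 in glmTreat against a 1.5-fold change, the last 2 being stricter by construction. It was 17 to 55 with single libraries left out. With 3 embryos per group the intervals of both genes are wide, and what a different read depth would give was not tested.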
